A study of Homo sapiens with 14 samples.

Results

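Hep3BTAp73β cells kept in doxycycline (Dox+) were followed from 12 h to 48 h after induction, on 7 of the 14 arrays of the series. The 7 arrays were chosen by label: 2 cultures at 12 h, 2 at 24 h and 3 at 48 h, all treated with doxycycline at 1 μg/mL. The other 7 arrays are untreated cultures of the same line (Dox−) with the same times and numbers, and they serve here to show what moved with time without doxycycline. Hep3B is a hepatocellular carcinoma line that makes a low level of TAp73 of its own. Hep3BTAp73β cells hold in addition a TAp73β construct under a tetracycline-controlled promoter, and were grown from colonies picked after antibiotic selection. The labels call the replicates biological. In bulk samples of this kind fewer cells of a type and less RNA per cell cannot be told apart. All arrays come from this line, and none from a line without the construct given doxycycline, so doxycycline and TAp73β cannot be told apart. The sample labels give DMEM as the culture medium and the study's methods RPMI. Expression is given as log2 values on Affymetrix U133 Plus 2.0 arrays, so that a difference of 1 is 2-fold, and the comparison asked how expression moved on while TAp73β was being made.

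TAp73β is a transactivating isoform of p73, a sequence-specific transcription factor. Its direct targets include cell cycle inhibitors, death receptors and, in squamous epithelia, genes that p63 also controls. The genes that respond to an inducible factor can include direct targets and, later, targets of those targets.

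TP73 itself stood at the same level at 12 h and 48 h on the probe set used, with both 24 h arrays above the others. Its probe set read 7.96 and 7.89 (12 h), 8.14 and 8.30 (24 h), then 7.95, 7.92 and 7.90 (48 h), against 5.82 to 6.08 on the 7 Dox− arrays. The 48 h and 12 h Dox+ arrays overlapped, and the difference was -0.00 (95% interval -0.21 to 0.20, adjusted p = 0.988). The other 2 TP73 probe sets differed by 0.43 and 0.54 and did not pass (adjusted p = 0.0789 and 0.146 over all probe sets). The hepatocyte markers measured (11 of 13 listed) all lay above the median gene at 48 h, with levels of 7.74 to 14.4. Between 12 h and 48 h 3 of them fell (AFP, TTR and FGB) and SERPINA1 rose, and their summed level was 129.1 and 129.6 on the 12 h arrays, 129.0 on both 24 h arrays and 127.5 to 128.2 on the 48 h arrays, so that the 12 h and 48 h arrays did not overlap. ALB, the gene of serum albumin, read 14.30 to 14.40 on the 7 Dox+ arrays, close to the highest values of these arrays (14.48 to 14.53), where a change may not show. Its other probe sets rose by 0.98 (adjusted p = 0.0186 over all probe sets) or changed by -0.27 and -0.92 without passing. None of the 11 endothelial markers lay above the median gene, and their summed level lay between 51.8 and 53.2 on the 12 h arrays, 52.2 and 53.2 on the 24 h arrays, and 50.8 and 51.5 on the 48 h arrays.

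Between 12 h and 48 h, 1115 genes rose and 622 fell in Dox+ cells, which is 5.64% and 3.15% (8.78% in either direction) of the 19775 genes tested (limma, Benjamini-Hochberg adjusted p under 0.05). Of these, 143 rose and 29 fell at least 2-fold, and the median change was 0.58 among the rises and -0.50 among the falls. The 2 arrays at 12 h differed more from each other than the later ones. The spread between replicates (root of the mean variance over genes, log2) was 0.196 for the 12 h arrays, 0.15 for those of 24 h and 0.111 for those of 48 h, and array weights that take this into account lowered the counts to 697 and 281. Without 12 h replicate 2 the counts were 1381 and 1117, and without any 1 of the 48 h arrays they were 541 to 674 and 234 to 250. The genes named below passed with and without the weights, unless said otherwise.

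The transcripts that rose most include several that are typical of squamous and secretory epithelium. Most genes of the squamous list did not pass: of 53 measured 7 rose, and the median change was -0.06. RNASE7, a secreted antimicrobial ribonuclease of skin, read 5.76 and 5.57 (12 h), 6.06 and 6.45 (24 h), then 8.88, 8.96 and 9.23 (48 h). All 48 h arrays lay far above the earlier ones, and the rise was 10.3-fold (log2 3.36, SE 0.14, adjusted p = 2.18e-06). In Dox− cells RNASE7 stayed between 3.58 and 4.58. CSTA, a cysteine protease inhibitor of the cornified envelope, read 9.97 and 10.12 (12 h), 11.58 and 11.90 (24 h), then 12.43, 12.38 and 12.65 (48 h). It climbed earlier than RNASE7: 69.3% of its 5.43-fold rise was present at 24 h, against 17.6% for RNASE7. FXYD3, a regulator of the sodium pump, rose 4.21-fold, ABCA12, the lipid transporter of keratinocyte lamellar granules, rose 4.39-fold, and ANXA1, a phospholipid-binding protein of inflamed epithelia, rose 4.48-fold. A second ANXA1 probe set changed by 0.25 and did not pass. The long non-coding RNA UCA1 rose 4.31-fold, from 8.30 and 8.01 at 12 h through 9.41 and 9.62 at 24 h to 10.17, 10.05 and 10.58 at 48 h, whereas on the Dox− arrays it fell from 6.95 and 6.65 to a 48 h mean of 5.73.

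Other large rises were of enzymes, channels and secreted proteins. CYP4F3, a fatty acid ω-hydroxylase that inactivates leukotriene B4, read 4.79 and 5.15 (12 h), 5.75 and 6.15 (24 h), then 7.75, 7.68 and 7.97 (48 h), a 7.12-fold rise (adjusted p = 9.12e-06). Its neighbour in the family CYP4F2 rose 2.48-fold, on a probe set of the kind that can match several members of a family. The transcribed pseudogene WFDC21P rose 5.04-fold and CRISP3, a secreted cysteine-rich protein, 4.83-fold. Part of the CRISP3 rise was shared with Dox− cells: it was 2.27 on the log2 scale, and the difference between the changes 1.22. KCND2, a voltage-gated potassium channel, rose 6.84-fold, but also rose in Dox− cells (log2 1.62, adjusted p = 0.0017). APOE, the apolipoprotein of remnant particles, read 9.53 and 11.04 at 12 h and 12.31, 12.36 and 12.47 at 48 h, a 4.28-fold rise from a wide 12 h pair. Its other probe sets rose by 0.90 and 0.50 on the log2 scale, and in Dox− cells it rose by 1.33 (adjusted p = 0.0039).

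**Figure D1:**
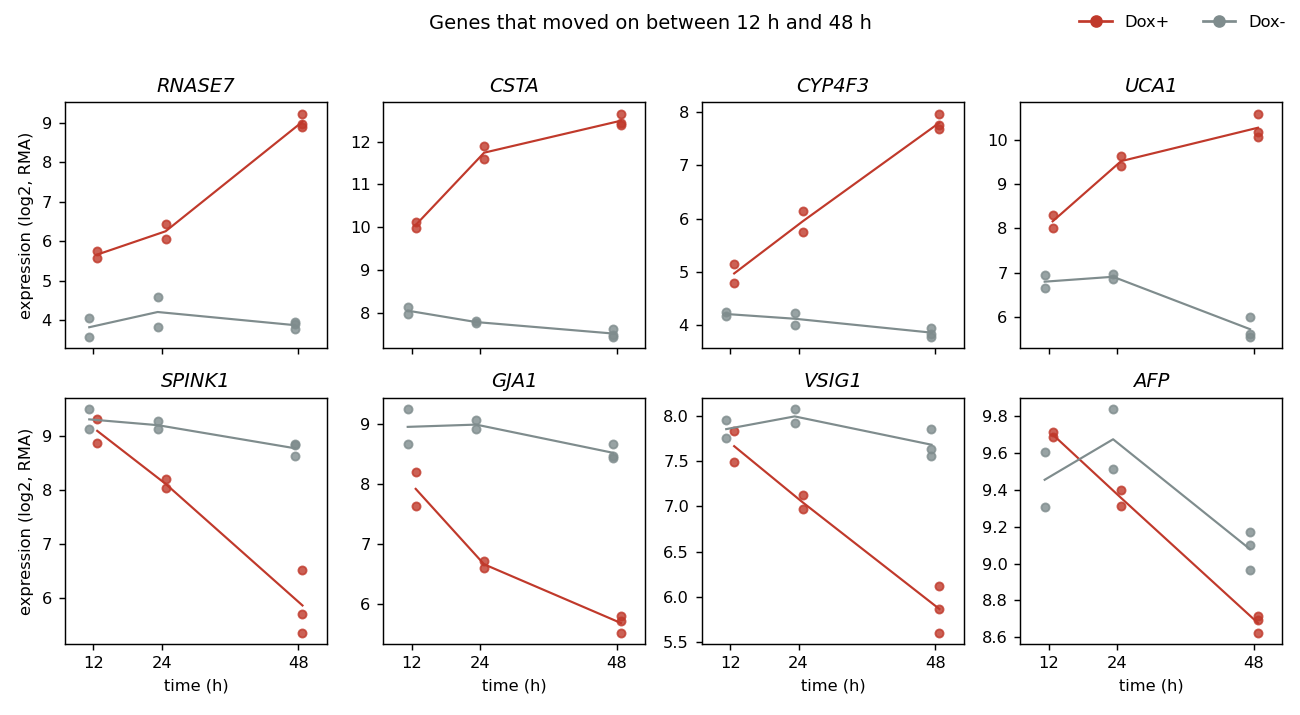
Expression (log2, RMA) of 8 genes by time in h, with 1 point per array and lines through the group means, Dox+ in red and Dox− in grey. RNASE7 moved mainly after 24 h, CSTA and UCA1 had made most of their rise by 24 h, and SPINK1 and GJA1 fell in Dox+ cells to levels below every Dox− array.

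Genes that fell were fewer. SPINK1, a secreted trypsin inhibitor that many hepatocellular carcinomas express, read 8.87 and 9.31 (12 h), 8.03 and 8.19 (24 h), then 5.36, 5.70 and 6.53 (48 h). The 48 h arrays lay below all earlier ones, a 9.38-fold fall (log2 -3.23, SE 0.27, adjusted p = 1.34e-04). GJA1, which encodes the gap junction protein connexin 43, fell 4.71-fold, with 7.63 and 8.21 (12 h), 6.60 and 6.72 (24 h), then 5.72, 5.81 and 5.52 (48 h). More than 50% of the fall of GJA1 (56.2%) was present at 24 h, against 30.4% for SPINK1. ZPLD1, a zona pellucida-like domain protein, fell 3.94-fold, and VSIG1, a junctional adhesion protein of gastric epithelium, 3.48-fold. CGA, the common α subunit of the glycoprotein hormones, fell 3.23-fold. PCSK5, a proprotein convertase, fell 3.21-fold from a 12 h pair of 6.37 and 7.55, and its other 2 probe sets fell by 0.74 and 1.17 on the log2 scale. PAPSS2, which makes the sulfate donor PAPS, fell 3.02-fold, although 1 of its other probe sets did not pass (-0.21). LGR5, the R-spondin receptor of epithelial stem cells, fell 2.93-fold on the probe set used, while its second, dimmer probe set changed by 0.01. GPRC5B fell by 1.32 on the log2 scale, HOXD1, ANKRD29 and KRTAP3-1 fell 2.75-, 2.43- and 2.54-fold, and KRTAP3-1 fell as far in Dox− cells (-1.41). Part of the falls of PAPSS2 and GPRC5B was shared with Dox− cells. The differences between the changes, -0.71 and -0.65, did not pass (adjusted p = 0.254 and 0.146 over all probe sets). For LGR5, on the probe set used, this difference was -1.41 and did not pass either (adjusted p = 0.21 over all probe sets).

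From 12 h to 24 h only 54 genes rose and 20 fell (0.273% and 0.101%), and from 24 h to 48 h 1388 rose and 890 fell (7.02% and 4.5%). The intervals share the 24 h arrays, and the later one has the larger group. Without 12 h replicate 1 or 2 the early counts were 254 and 53 or 385 and 232, without 24 h replicate 1 or 2 they were 4 and 0 or 3 and 0, and without a 48 h array they were 19 to 27 and 5 to 9. The later counts were 291 and 125 without 24 h replicate 1, 713 and 383 without replicate 2, 2091 and 1744 without either 12 h array, and 499 to 650 and 185 to 253 without a 48 h array. Of the 1115 genes that rose over the whole course, 793 had a 24 h mean between the 12 h and 48 h means, 281 had one below the 12 h mean and 41 one above the 48 h mean. The median share of the rise present at 24 h was 23.6%. Of the 622 that fell, 477 were between, and the median share was 34.1%.

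A small group moved early and then levelled off or turned. LCN15, a lipocalin, read 7.10 and 6.91 (12 h), 8.70 and 8.97 (24 h), then 8.23, 8.24 and 8.24 (48 h), so that it rose (log2 1.83, adjusted p = 4.3e-04) and then fell (-0.60, adjusted p = 0.0094). TRIM29, a squamous epithelial TRIM protein, and ISYNA1, which makes inositol 3-phosphate, each rose by 1.42 in the early interval and did not pass in the later one (-0.18 and -0.06). LAMB3, a laminin chain of epithelial basement membranes, rose by 0.98 early and differed by -0.20 later, without passing. PCSK6 fell early by 1.12 and rose later by 0.45. CLHC1 fell early by 1.09 and rose again by 1.10. CSTA and LCN15 kept their early calls in each fit that left out 1 Dox+ array, whereas TRIM29, ISYNA1, GJA1, PCSK6, CLHC1 and the kinase gene RSKR lost theirs without either of the 24 h arrays (adjusted p = 0.0585 to 0.215). ISYNA1, GJA1 and RSKR also lost theirs without 48 h replicate 3 (adjusted p = 0.0642, 0.0616 and 0.0616). In the later interval FOS, RNASE7, KCND2 and ABCA12 rose most, and SPINK1, INHBC, SF3A2 and ZPLD1 fell most. The splicing factor SF3A2 had risen by 0.75 at 24 h (adjusted p = 0.0438, and 0.136 with the weights), and INHBC, an inhibin subunit of liver, differed there by 0.83 without passing (adjusted p = 0.0778). The 2 Dox− arrays at 12 h gave INHBC at 6.54 and 9.51.

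Part of the movement was shared with untreated cells. In Dox− cells 1834 genes rose and 2093 fell between the same times (9.27% and 10.6% of genes, 19.9% in either direction). When each array was centred on its median gene these counts became 2196 and 1481. Of the 1115 genes that rose in Dox+ cells, 483 (43.3%) also rose in Dox− cells, which is 26.3% of the Dox− rises. Of the 622 that fell, 114 (18.3%) also fell there, 5.45% of the Dox− falls. The 2 changes share no arrays, and over the 19775 genes they had a Pearson r of 0.434 and the same sign in 66.1%. Genes are not independent replicates, so these 2 values describe the arrays only.

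The difference between the 2 changes was tested directly, as the change in Dox+ minus the change in Dox− cells, with array weights and again without. It passed in both for 121 genes whose change was more positive in Dox+ cells and for 87 whose change was more negative (0.612% and 0.44%). With arrays centred on the median gene, these counts were 102 and 142. Of the 121, 109 rose in Dox+ cells and 31 fell in Dox− cells. Of the 87, 53 fell in Dox+ cells and 55 rose in Dox− cells. Leaving out any 12 h array, Dox+ or Dox−, leaves 1 array in that group. In each of these fits most of the 121 and most of the 87 genes no longer passed.

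RNASE7 (3.31, adjusted p = 4.5e-05), CYP4F3 (3.18), UCA1 (3.18), CSTA (2.98) and WFDC21P (2.44) had the largest positive differences, and SPINK1 (-2.70, adjusted p = 0.0166) and GJA1 (-1.80, adjusted p = 0.00318) were among the largest negative ones. In 3 genes with large negative differences Dox− cells rose. TM4SF4, a tetraspan membrane protein of liver and gut, fell from 7.61 and 7.54 to 6.63, 6.79 and 6.72 in Dox+ cells and rose from 7.84 and 7.77 to 8.77, 8.69 and 8.96 in Dox− cells. RFX6, a transcription factor of the endocrine pancreas and gut, changed by -0.59 in Dox+ and 1.19 in Dox− cells. ATP2B2, a plasma membrane calcium pump, changed by -0.31 in Dox+ cells, which did not pass, and by 1.37 in Dox− cells. The differences on the other ATP2B2 probe sets, -0.84 to 0.29, did not pass. JAG1, a Notch ligand, was the opposite case. On the probe set used it read 10.77 to 11.11 on the Dox+ arrays and did not pass, and it fell in Dox− cells from 10.37 and 10.30 at 12 h to 9.47, 9.42 and 9.54 at 48 h (difference of the changes 1.05, adjusted p = 0.00505). Of its other 5 probe sets 1 rose by 1.44 in Dox+ cells (adjusted p = 0.0052 over all probe sets) and 4 did not pass. Without 1 of the 12 h Dox+ arrays the differences of WFDC21P, SPINK1 and ATP2B2 did not pass in either case (adjusted p = 0.0604 to 0.225), and those of GJA1 and RFX6 did not pass without replicate 2 (0.0963 and 0.0757). SPINK1 also did not pass without 12 h Dox− replicate 1 or 2 (0.0751 and 0.0501), nor WFDC21P without replicate 2 (0.0501).

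**Figure D2:**
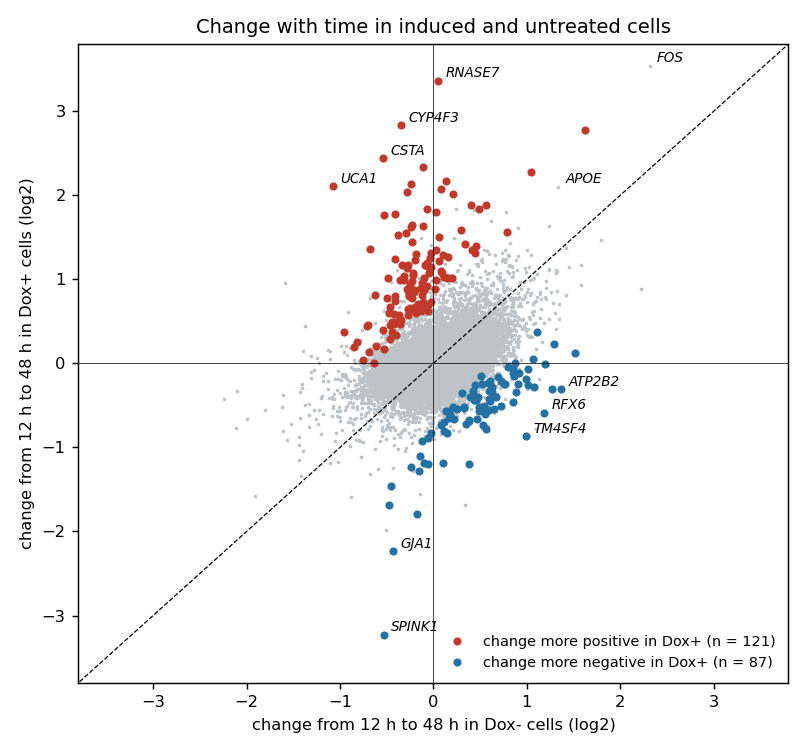
Change from 12 h to 48 h (log2) of each of 19775 genes in Dox− cells (horizontal axis) and Dox+ cells (vertical axis), with the line of equal change. Red points are the 121 genes whose change was more positive and blue points the 87 whose change was more negative in Dox+ cells. FOS and APOE rose under both conditions and lie in the upper right, in grey because the difference between their changes did not pass.

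Cholesterol synthesis was the list with the largest share of members that rose. Of 19 measured genes 14 rose and none fell, with a median change of 0.50 against -0.04 over all genes. TM7SF2, a sterol reductase, read 9.13 and 9.04 (12 h), 9.65 and 9.40 (24 h), then 10.37, 10.43 and 10.38 (48 h), a rise of 1.31 (adjusted p = 9.51e-05). MVD, which makes isopentenyl diphosphate, rose by 0.95, the sterol carrier STARD4 by 0.81 and INSIG1, which retains the sterol sensor in the endoplasmic reticulum, by 0.75. The movement came late: no member passed from 12 h to 24 h, and 12 rose from 24 h to 48 h. It was also present in Dox− cells, where 12 rose, and the difference between conditions passed for TM7SF2 alone (0.87, adjusted p = 0.017). The count in Dox+ cells was 11 with array weights, 9 without 48 h replicate 1, and 7 without 48 h replicate 2 or 3.

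Of 44 autophagy and lysosome genes 16 rose and none fell (median 0.30), and in Dox− cells 9 rose and none fell (median 0.21). CTSD, the lysosomal aspartyl protease cathepsin D, read 8.34 and 8.63 (12 h), 9.12 and 9.22 (24 h), then 9.36, 9.42 and 9.45 (48 h), and it stayed at 8.83 to 8.85 at 48 h in Dox− cells. The cysteine protease CTSH rose by 1.01, the autophagosome protein GABARAPL1 by 0.93 and LIPA, the lysosomal acid lipase, by 0.87. The difference from Dox− cells passed for CTSH (1.12, adjusted p = 0.00804) and CTSD (0.99, adjusted p = 0.0315). LIPA rose in Dox− cells as well, by 0.78. The count was 11 with array weights and 10 without any 1 of the 48 h arrays.

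Of 34 immediate early and ERK feedback genes, which answer growth factor and stress signals within minutes, 9 rose, 1 fell and 24 did not pass. In Dox− cells 8 rose and 8 fell, and without 12 h replicate 2 the falls in Dox+ cells were 5. FOS, a subunit of the AP-1 factor, read 5.28 and 4.99 (12 h), 5.36 and 5.62 (24 h), then 8.64, 8.72 and 8.66 (48 h), an 11.6-fold rise (adjusted p = 3.56e-07) of which 10.0% was present at 24 h. FOS also rose in Dox− cells, by 2.32, and the difference between the changes did not pass (1.22, adjusted p = 0.0575). EGR1 rose by 1.56, IER2 by 0.93 and FOSB by 0.88. The difference from Dox− cells passed for EGR1 (0.78, adjusted p = 0.0315) and FOSB (0.87, adjusted p = 0.0294). Of the other EGR1 probe sets 1 rose by 2.74 and 1 changed by 0.34 without passing, and their differences (0.81 and 1.02) did not pass.

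Targets of YAP and TEAD, the effectors of the Hippo pathway, gave 9 rises and 2 falls among 29 genes. CCN2 and CCN1, matricellular proteins that are textbook targets, moved after 24 h. CCN2 read 8.86 and 8.64 (12 h), 8.87 and 8.51 (24 h), then 10.14, 10.20 and 10.45 (48 h), so that the 12 h and 24 h arrays overlapped and the 48 h arrays stood above them. Its rise was 1.51 (adjusted p = 1.76e-04) and CCN1 rose 2.29-fold. The Dox− values of CCN2 ranged from 9.40 to 10.41 and did not pass between 12 h and 48 h (0.06). All 12 h and 24 h Dox+ arrays lay below that range, and the 48 h arrays lay in its upper part or just above it. FJX1 rose by 1.42. ANKRD1 rose by 1.40, but from a 12 h pair of 4.46 and 6.03, and its call was lost without any 1 of the 48 h or 24 h arrays (adjusted p = 0.0565 to 0.117). The difference from Dox− cells was positive and passed for CCN2 (1.45), CCN1 (1.26), FJX1 (1.08) and CRIM1 (0.75), and was negative and passed for NT5E. On the probe set used YAP1 itself changed by 0.21 and did not pass (adjusted p = 0.189), whereas its other 2 probe sets rose by 0.44 and 0.45 (adjusted p = 0.016 and 0.0444 over all probe sets). WWTR1, which encodes its partner TAZ, rose by 0.44 without the weights only (adjusted p = 0.0271, and 0.0745 with them), and its other 2 probe sets changed by 0.24 and -0.10 without passing. Without 48 h replicate 3 the count of rises was 6.

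**Figure D3:**
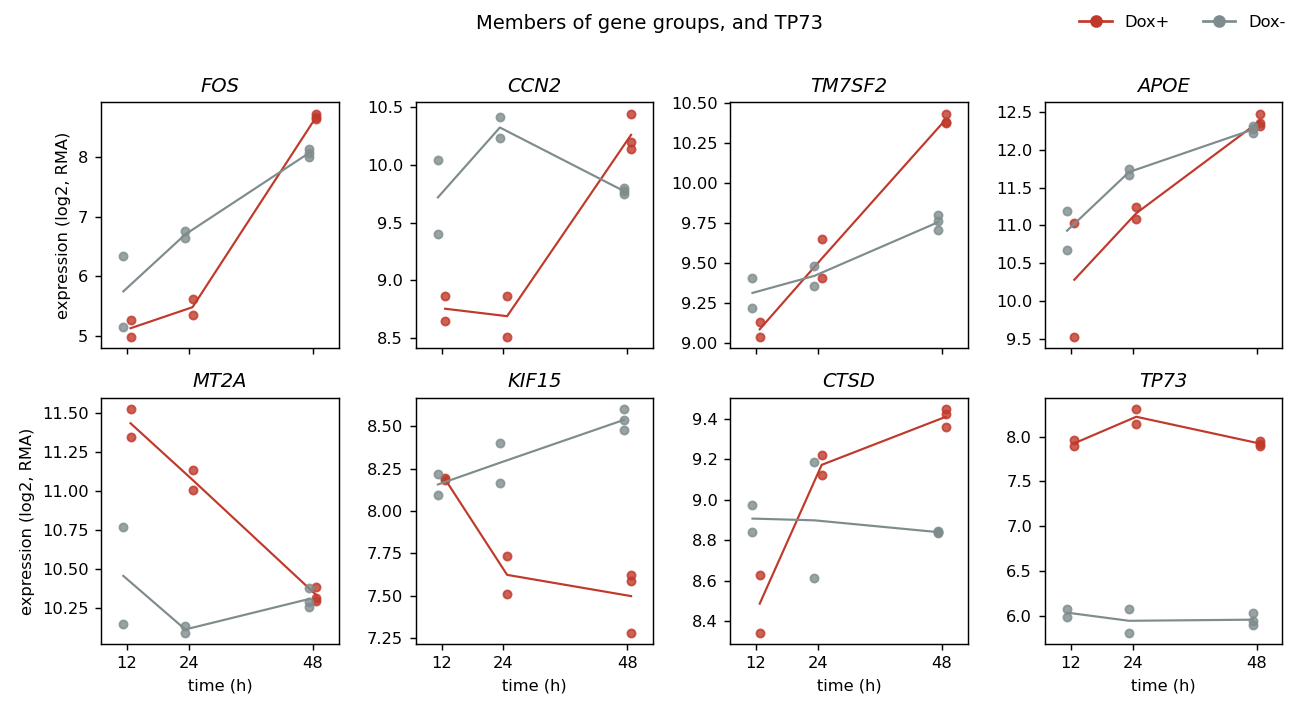
Expression (log2, RMA) of 8 genes by time in h, with 1 point per array and lines through the group means, Dox+ in red and Dox− in grey. FOS, CCN2 and TM7SF2 rose mainly after 24 h, MT2A and KIF15 fell, and TP73 stayed near 8 in Dox+ cells and near 6 in Dox− cells.

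Mitotic genes fell in larger number than those of any other list with all arrays and no weights. Of 70 G2/M regulators and mitotic spindle genes 23 fell and none rose, with a median change of -0.40. KIF15, a spindle kinesin, read 8.19 and 8.18 (12 h), 7.51 and 7.74 (24 h), then 7.59, 7.62 and 7.28 (48 h), while in Dox− cells it rose from 8.10 and 8.22 to 8.48, 8.54 and 8.60. KIF4A, a chromokinesin, fell by 0.78, CDC25B, a phosphatase that activates mitotic cyclin-dependent kinases, by 0.69 and TROAP, a spindle-associated protein, by 0.63. The median change from 12 h to 24 h was -0.33, and no gene of the list passed in that interval. In Dox− cells 6 members rose and 2 fell (8.57% and 2.86%, against 9.27% and 10.6% of all genes), with a median of 0.10. Of the differences between conditions KIF15 alone passed (-1.07, adjusted p = 0.0264). MKI67, CDK1 and TOP2A changed by -0.18, -0.18 and -0.37 and did not pass. Of the falls, 7 passed with array weights, 16 without either 12 h array, 15 without either 24 h array, and 10, 15 and 8 without 48 h replicates 1, 2 and 3. DNA replication genes gave 3 falls and 1 rise among 60 (5.0% and 1.67%, against 3.15% and 5.64% of all genes). Their falls were 9 without 12 h replicate 2, 5 without 12 h replicate 1 and 1 without 48 h replicate 3. Ribosome biogenesis genes fell in 6 of 43 cases, in 2 with the weights, in 10 without 12 h replicate 1, and in 1, 2 and 2 without 48 h replicates 1, 2 and 3, and none of 29 ribosomal protein genes passed.

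Metallothioneins, the small cysteine-rich proteins that bind zinc and copper, fell too. Of 7 measured, 6 fell, and MT1M did not pass (-0.01). MT1X read 10.23 and 10.51 (12 h), 9.90 and 10.03 (24 h), then 9.17, 9.17 and 9.21 (48 h), a fall of 1.18 on the log2 scale (adjusted p = 1.64e-04). MT2A fell by 1.11, from 11.35 and 11.52 to 10.29, 10.31 and 10.38. Both 12 h Dox+ arrays lay above every Dox− array, which gave 9.19 to 9.80 for MT1X and 10.09 to 10.77 for MT2A. At 48 h MT2A lay within that range, and MT1X at its lower end, with 2 of 3 arrays just below it. The difference from Dox− cells passed for MT1X (-1.08, adjusted p = 0.0168) and MT2A (-0.96, adjusted p = 0.0294). The genes are near copies of each other, and the probe sets used for MT1X, MT1H and MT2A can hybridise to several of them, so the 6 falls are not 6 separate measurements. On the whole list of NRF2 targets and metallothioneins 8 of 28 fell and 2 rose, with 4 falls without 12 h replicate 1 or 48 h replicate 3 and 5 without 48 h replicate 1. With the weights 6 of these 28 genes fell against 7 of the 70 mitotic genes, a larger share, as it was without 48 h replicate 1 or 3.

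Promoters of metallothioneins, cholesterol synthesis genes, YAP and TEAD targets and G2/M genes were searched for the core elements of their textbook regulators. The search covered both strands of the 250 bases before the start (RefSeq, GRCh38.p14). All measured members with a promoter at hand were taken, whether or not they moved. Of the 70 measured G2/M genes 47 did not pass between 12 h and 48 h, and of the 29 YAP and TEAD targets 18 did not. The metal response element core (TGCGCNC or TGCACNC) was present in 3 of 3 metallothionein promoters at hand, and in 24.7% of all 27305 promoters. The TEAD element (GGAATG) was present in 6 of 22 YAP and TEAD targets against 11.9% of all promoters, and the CHR element of cell cycle genes (TTTGAA) in 30 of 60 G2/M genes against 13.6%. The sterol response element (TCACNCCAC) was found in 1 of 17 cholesterol synthesis promoters and 0.875% of all. A match is a description of the letters and does not show binding. The promoters of MT2A (chr16:56608334-56608583, plus strand, 7 matches), MT1X (chr16:56682220-56682469, plus strand, 4 matches), CCN2 (chr6:131951373-131951622, minus strand, 3 matches) and KIF4A (chrX:70289854-70290103, plus strand, 1 match) are shown 5′ to 3′ because these genes carry the falls and the late rise described above, with the matched elements in capitals.
MT2A: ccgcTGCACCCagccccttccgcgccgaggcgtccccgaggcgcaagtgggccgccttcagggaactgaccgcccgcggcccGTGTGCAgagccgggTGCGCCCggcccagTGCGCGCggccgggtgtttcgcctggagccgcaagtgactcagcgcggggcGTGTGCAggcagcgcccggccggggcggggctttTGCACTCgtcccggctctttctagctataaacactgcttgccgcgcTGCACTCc
MT1X: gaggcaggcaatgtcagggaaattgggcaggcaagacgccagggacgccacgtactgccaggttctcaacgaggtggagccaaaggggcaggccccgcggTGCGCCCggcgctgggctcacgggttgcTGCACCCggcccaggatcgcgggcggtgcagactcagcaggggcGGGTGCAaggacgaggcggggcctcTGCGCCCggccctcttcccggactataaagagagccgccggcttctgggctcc
CCN2: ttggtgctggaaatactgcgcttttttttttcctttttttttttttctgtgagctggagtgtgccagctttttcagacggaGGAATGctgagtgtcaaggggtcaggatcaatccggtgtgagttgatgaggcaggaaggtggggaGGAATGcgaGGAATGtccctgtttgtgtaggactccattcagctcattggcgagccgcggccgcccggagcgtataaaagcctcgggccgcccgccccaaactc
KIF4A: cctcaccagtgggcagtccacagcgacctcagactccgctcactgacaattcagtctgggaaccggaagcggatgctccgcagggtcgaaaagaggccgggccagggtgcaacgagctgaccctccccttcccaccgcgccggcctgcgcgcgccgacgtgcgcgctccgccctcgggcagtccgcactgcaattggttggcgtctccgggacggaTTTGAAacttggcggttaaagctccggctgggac

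TRIM22, an interferon-inducible antiviral protein, rose by 0.98 and the death receptor FAS by 0.88. The difference from Dox− cells passed for TRIM22 (1.21) and FAS (1.17). Of the other 4 FAS probe sets 3 rose and 1 changed by -0.04. The apoptosis effector BAX changed by 0.89, from a 12 h pair of 8.44 and 9.75, and did not pass (adjusted p = 0.0826). Of 44 interferon-stimulated and antigen presentation genes 8 rose (18.2%, against 5.64% of all genes) and none fell. In Dox− cells 6 fell (13.6%, against 10.6% of all genes) and none rose. The difference between conditions passed for 3 of the 44 genes, toward a more positive change in Dox+ cells. IRF9, a subunit of the interferon response factor ISGF3, read 7.94 and 7.86 (12 h), 8.03 and 8.04 (24 h), then 8.71, 8.68 and 8.71 (48 h), and its change differed from that of Dox− cells by 1.07 (adjusted p = 0.00204). The RNA sensor RIGI rose by 0.80 on the probe set used, while its other probe sets changed by 0.05 and -0.10 without passing. HLA-B rose by 0.60. The count of 8 was 5 with the weights, without 12 h replicate 2, and without 48 h replicate 1 or 2.

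Hepatocyte genes did not move as 1 group. Of 45 plasma protein genes 9 rose and 3 fell, with a median change of 0.00. In Dox− cells 17 of the 45 rose and 1 fell (median 0.22). The counts have different backgrounds: of all genes 5.64% rose and 3.15% fell in Dox+ cells, against 9.27% and 10.6% in Dox− cells. The list's share of rises lay above that of all genes in both conditions. Its share of falls lay above that of all genes in Dox+ cells and below it in Dox− cells. AFP, the fetal serum protein, read 9.68 and 9.71 (12 h), 9.31 and 9.40 (24 h), then 8.63, 8.69 and 8.71 (48 h), a 2.03-fold fall (adjusted p = 1.45e-04). In Dox− cells AFP changed by -0.38, and the difference between the changes, -0.65, did not pass (adjusted p = 0.126). CPS1, the entry enzyme of the urea cycle, read 9.82 and 9.78 (12 h), 9.76 and 9.69 (24 h), then 8.56, 8.66 and 8.35 (48 h), and here the difference from Dox− cells passed (-1.12, adjusted p = 0.0121). TTR, the thyroxine carrier transthyretin, fell by 0.80. SERPINA6 and SERPINA7, which carry cortisol and thyroxine, rose by 1.09 and 1.07. CYP3A4 changed by -0.01 (adjusted p = 0.98), and ARG1 by -0.11, without passing. Of 24 hepatocyte transcription factors 3 fell, GATA4 by 0.78, NR0B2 by 0.44 and TBX3 by 0.37, the last without the weights only. The other probe sets of GATA4 (-0.42 to 0.05) and of TBX3 (-0.20 to -0.02) did not pass. NR0B2 did not pass without 48 h replicate 1 or 2 (adjusted p = 0.0575 and 0.0559). CYP39A1, a hydroxylase of bile acid synthesis, rose by 1.15 and CYP1A1 by 1.28, and both rose in Dox− cells too (1.45 and 0.91).

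Among structural genes, 10 of 57 members of the epithelial-mesenchymal transition list rose and 4 fell, with 6 rises under the weights or without 48 h replicate 2 and 5 without 48 h replicate 3. FBN1 and FBLN5, which build elastic fibres, rose most. FBN1 read 7.21 and 7.49 (12 h), 8.17 and 8.08 (24 h), then 9.17, 9.21 and 9.31 (48 h), a 3.69-fold rise, and FBLN5 rose 3.44-fold. The membrane metalloproteinase MMP14 rose by 1.22. E-cadherin (CDH1), on the tight, adherens and gap junction list, rose as well (0.46, adjusted p = 0.0168). It did not pass without 48 h replicate 1 or 2 (adjusted p = 0.0723 and 0.074). The rise of CDH1 was shared with Dox− cells: the difference between the changes was 0.0013 (adjusted p = 0.998 over all probe sets). N-cadherin (CDH2) fell by 0.50. The squamous list gave 7 rises among 53 genes (13.2%, against 5.64% of all genes) and no fall, with a median of -0.06. In Dox− cells 2 of the 53 rose and 13 fell (3.77% and 24.5%, against 9.27% and 10.6% of all genes). KRT5, KRT14 and IVL, defining genes of squamous epithelium, changed by -0.02, -0.25 and -0.29 and did not pass. The cholangiocyte marker KRT19 changed by 0.47, which passed without the weights (adjusted p = 0.0423) and not with them (0.0608). Of 33 Notch pathway genes 3 rose (9.09%, against 5.64% of all genes), and 2 with the weights. HES4 rose most (1.29), and NOTCH1 changed by -0.02. Of 12 leukocyte markers ITGAM rose by 1.16, LAPTM5 by 0.70 and CD14 by 0.64. A second ITGAM probe set changed by 0.15 without passing. LYZ fell by 0.60 on 1 probe set while the other changed by 2.14 without passing (adjusted p = 0.0858). PTPRC, the defining leukocyte gene, had a mean of 3.74 at 12 h and 3.65 at 48 h, against a median gene of 6.52. The summed level of the 12 leukocyte markers was 68.1 on both 12 h arrays and 69.9 to 70.5 on the 48 h arrays, and its part in the results was not tested.

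The other lists moved in fewer members or in both directions. Over all genes 5.64% rose and 3.15% fell. Amino acid and endoplasmic reticulum stress genes gave 10 rises and 2 falls of 41, with 5 to 8 rises when 1 array was left out. TGF-beta signalling gave 8 and 2 of 38 (3 to 8 rises), drug and xenobiotic metabolism 9 and 2 of 44 (6 to 9) and apoptosis regulators 6 and 1 of 38 (2 to 7). Bile acid synthesis and transport gave 4 rises and 6 falls of 30 (1 to 4 and 2 to 6 with 1 array left out), and the direction of the balance turned in at least 1 alternative. For hypoxia-inducible genes it turned as well, with 4 and 5 of 30, but 6 and 3 without 12 h replicate 1 and 4 and 2 with the weights. Hepatic stem and progenitor markers gave 3 and 4 of 24 (1 to 3 and 2 to 4), and the Wnt pathway 3 and 3 of 39 (1 to 4 in both directions). The Wnt share was 7.69% in each direction. Junction genes gave 5 and 1 of 32, cholangiocyte markers 4 and 0 of 25, basement membrane genes 3 and 0 of 26, and stellate cell markers 2 and 0 of 12. Fatty acid genes gave 3 and 1 of 36, glycolysis 2 and 2 of 28, NF-kB and chemokine genes 2 and 2 of 34 and heat shock genes 1 and 0 of 19. Their shares of rises, in that order 8.33%, 7.14%, 5.88% and 5.26%, lay close to that of all genes. Oxidative phosphorylation gave 0 and 1 of 31 (0 to 1 and 0 to 2), with 3.23% of falls, and endothelial markers none of 11.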

How the data were processed

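The 14 arrays were deposited as log2 values that the authors made with RMA in R 3.5.1, and the scans were not used here. Of 54675 probe sets, 62 controls were left out, and 41091 had 1 gene symbol, 1801 several and 11721 none. Each of 19775 genes was represented by its probe set with the highest mean over all arrays. No array depth exists, and the number of arrays limits the precision. The 7 Dox+ arrays were fitted as 3 group means with limma 3.58.1 (R 4.3.3), two-sided, with Benjamini-Hochberg adjustment over all genes and a threshold of 0.05, and the 7 Dox− arrays likewise. The difference between the changes came from 1 fit of 14 arrays and had to pass with and without array weights by time point. The script was tested on simulated data. Genes named are those the study names, the 12 largest rises and falls from 12 h to 48 h, the 4 largest in each interval and the 5 largest differences, among genes past the test with and without weights, and up to 4 members per list. CDH2, TTR and other list members outside this rule were chosen after their values were seen. The members and the 35 lists, 1 of them not reported here, were chosen with earlier results of these data known. Alternatives were array weights, other probe set choices, scaling, filters, moderation, the arrays fitted, the methods' t-test, a replicate block and leaving out each array. Some genes the study names are not reported here. Replicate numbers were checked for pairing and did not pair the arrays.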

Additional observations from a re-analysis of the deposited data

Results flagged for a closer look

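The change from 12 h to 48 h differed between Dox+ and Dox− cells, by a test of the difference itself, in 121 genes toward a more positive and in 87 toward a more negative change in Dox+ cells. The largest positive differences on the log2 scale were those of RNASE7 (3.31), CYP4F3 (3.18), UCA1 (3.18), CSTA (2.98) and WFDC21P (2.44). The largest negative ones were those of SPINK1 (-2.70), TM4SF4 (-1.86), GJA1 (-1.80), RFX6 (-1.78) and ATP2B2 (-1.68).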

How the results depend on the processing

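In Dox+ cells the 1115 rises and 622 falls from 12 h to 48 h became 697 and 281 with array weights, 2823 and 953 over every probe set, 521 and 216 with the replicate block, 1 and 5 by the methods' t-test after Benjamini-Hochberg adjustment, and 143 and 29 with a 2-fold minimum, and the rises 1904 with the probe set of largest interquartile range. The range without 1 array was 541 to 1381 and 234 to 1117. From 12 h to 24 h, 54 and 20 became 3 and 0 with only the groups compared, 17 and 5 with weights, 90 and 42 with trend and robust moderation, 18 and 5 with the block, 0 and 2 by the t-test and 14 and 4 at 2-fold. The falls were 33 after quantile normalization, 32 by interquartile range and 36 over every probe set, and the range without 1 array was 3 to 385 and 0 to 232. From 24 h to 48 h, 1388 and 890 became 2091 and 1744 with only the groups compared, 511 and 260 with the block, 125 and 75 by the t-test and 69 and 34 at 2-fold, with 2903 rises over every probe set and a range of 291 to 2091 and 125 to 1744. In Dox− cells 1834 and 2093 became 1044 and 762 with weights, 1089 and 1066 after quantile normalization, 677 and 511 with the block, 210 and 190 by the t-test and 78 and 72 at 2-fold, with 3866 rises over every probe set, 763 falls without dim genes and a range of 293 to 2623 and 169 to 2555. The differences, 121 and 87, became 46 and 39 without dim genes, 80 and 52 by interquartile range and 77 and 46 at 2-fold, with 200 negative ones under trend and robust moderation, 142 after centring and a range of 15 to 143 and 1 to 119. Centring moved the share of higher calls from 46.7% to 59.7% in Dox− cells and from 58.2% to 41.8% for the differences. The sign changed with the probe set for CXCL5 (0.86 by interquartile range and without x_at probe sets), LYZ (2.14) and CXCL8 (0.21). The cause was not tested. Same-numbered Dox+ arrays correlated at 0.001 to 0.09, so the numbers did not pair them.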
